A study of Mus musculus with 22 samples.

Results

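Neurons (N) were compared with neurogenic apical radial glia (aRG-N) through the peak lists of 2 histone marks, H3K4me3 and H3K27me3, on the 19 autosomes. The members were every autosomal peak of the 4 lists: 15247 H3K4me3 peaks in N, 14278 H3K4me3 peaks in aRG-N, 5448 H3K27me3 peaks in N and 6165 H3K27me3 peaks in aRG-N. Together these were 41138 of the 110069 peaks that the 10 lists of the series hold on all chromosomes. The series also covers neuroepithelial cells (NEC), proliferative apical radial glia (aRG-P) and basal radial glia (bRG). A peak was shared when it overlapped a peak of the same mark in the other list by at least 1 bp, and is otherwise called present in its own cell type and absent in the other.

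Both cell types were purified cells of the developing neocortex of C57BL/6JOlaHsd mice at E14.5 (E, embryonic day). The aRG-P and bRG samples also came from E14.5, and NEC from E9.5. No treatment or genetic change is named for any group, and the marker or reporter used to sort the cells is not given in the sources used here. Each cell type and mark had 2 samples, 8 in all for this comparison, and the 2 aRG-N H3K27me3 samples are labelled as technical replicates. Since each cell type and mark has a single list made from its combined samples, replicate spread cannot be given, no difference between cell types was tested, and the exact 95% binomial (Clopper-Pearson) intervals cover counting error only. The number of reads behind each list is unknown. Positions are 1-based in mouse build mm9. No gene annotation of that build was used, so regions carry no gene names, and the cell type labels were not checked against marker genes.

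Apical radial glia are progenitors that line the ventricle of the developing cortex; those in neurogenic division give rise, directly or through intermediate progenitors, to neurons. Trimethylation of histone H3 at lysine 4 marks promoters that are active or ready to be used. Trimethylation at lysine 27 is laid down by Polycomb repressive complex 2 over silent developmental genes, and the 2 marks together on a promoter are known as a bivalent state. Differentiation is known to resolve many such promoters toward 1 of the 2 marks. Peak lists of cell populations cannot show whether both marks sit on the same chromosome copy.

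The H3K4me3 lists were mostly shared, and the H3K27me3 lists less so. In N, 832 H3K4me3 peaks (5.46%, interval 5.10 to 5.83%) were absent in aRG-N. In aRG-N, 1495 H3K4me3 peaks (10.5%, interval 9.973 to 10.98%) were absent in N. For H3K27me3, 1443 N peaks (26.5%, interval 25.3 to 27.7%) were absent in aRG-N and 2247 aRG-N peaks (36.4%, interval 35.2 to 37.7%) were absent in N. These 4 percentages are the background against which the joint states of both marks are read below.

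**Figure D1:**
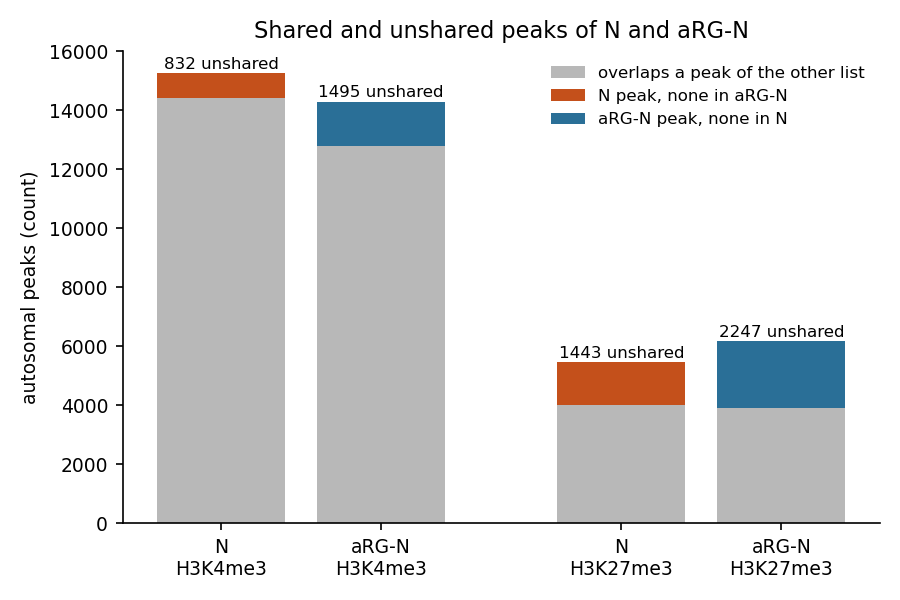
Autosomal peaks (count, y axis) of the N and aRG-N lists of each mark, split into shared peaks (grey) and unshared peaks (orange for N, blue for aRG-N). The unshared part is 832 and 1495 peaks for H3K4me3 and 1443 and 2247 peaks for H3K27me3, in N and aRG-N.

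Counted in bases the unshared peaks were a smaller part of each list. They held 2.48% of the H3K4me3 bases of N and 4.36% of those of aRG-N, and 8.75% of the H3K27me3 bases of N and 13.1% of those of aRG-N. The N H3K4me3 list covered 13.1 Mb and the aRG-N list 15.2 Mb, with median peak widths of 730 bp and 934 bp. The H3K27me3 lists covered 21.8 Mb in N and 24.6 Mb in aRG-N, with median widths of 2158 bp and 2118 bp. Unshared H3K4me3 peaks were narrow, with a median of 296 bp in N and 346 bp in aRG-N, against 760 bp and 998 bp for the shared peaks of the same lists.

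Absence was far more frequent among weak H3K4me3 peaks and short H3K27me3 domains. Fold enrichment here is the authors' peak caller's ratio to background for a peak and ranks peaks only within a list. Of N H3K4me3 peaks with a fold enrichment under 5, 24.7% were absent in aRG-N, against 0.0896% (4 of 4463) of those with 10 or more. In aRG-N, 52.4% of peaks under 5 and 0.452% (40 of 8845) of those with 10 or more were absent in N. For H3K27me3, 59.8% of N peaks shorter than 1 kb were absent in aRG-N and 1.95% (8 of 411) of domains of 10 kb or more. The same shares for aRG-N were 72.6% and 2.35% (11 of 468). The strongest H3K4me3 peaks and the longest H3K27me3 domains were thus nearly all listed in both cell types.

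Of the unshared H3K4me3 peaks, 375 in N and 467 in aRG-N lay within 500 bp of a peak of the other list, that is, beside a position that the other cell type also marked. In contrast 289 N peaks and 761 aRG-N peaks lay over 5000 bp away. Unshared H3K27me3 peaks were more isolated, with 1106 in N and 1670 in aRG-N over 5000 bp from the other list. On single autosomes the share of N peaks absent in aRG-N ran between 4.28% and 6.66% for H3K4me3 and between 20.3% and 41.2% for H3K27me3. The share of aRG-N peaks absent in N ran between 8.61% and 13.1% for H3K4me3 and between 29.1% and 44.4% for H3K27me3. The highest H3K27me3 values of both lists were those of chromosome 14.

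The lists leave out part of the calls, and the call numbers in the peak names show where. At 700 of the 832 H3K4me3 peaks of N and 1258 of the 1495 of aRG-N, the nearest listed peaks of the other cell type on both sides had consecutive numbers, so no unlisted call lay between them. For H3K27me3 this held at 901 of 1443 N peaks and 1487 of 2247 aRG-N peaks. At the remaining peaks the other cell type may have a call that is not in its list. The header of the aRG-N H3K4me3 list names a window of 2000 bp up and down that the N header does not, and its part in these counts was not tested.

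Where H3K4me3 was unshared, H3K27me3 of a single cell type lay mostly in the cell type that lacked H3K4me3. Among the 832 N H3K4me3 peaks absent in aRG-N, 12 (1.44%, interval 0.747 to 2.51%) overlapped H3K27me3 in N only and 75 (9.01%, interval 7.16 to 11.2%) in aRG-N only. Among the 1495 aRG-N H3K4me3 peaks absent in N, 137 (9.16%, interval 7.75 to 10.7%) overlapped H3K27me3 in N only and 20 (1.34%, interval 0.819 to 2.06%) in aRG-N only. Among peaks shared by both cell types, weak and strong together, these shares lay closer together. Of the 14415 shared N peaks, 3.42% (interval 3.13 to 3.73%) had H3K27me3 in N only and 2.65% (interval 2.39 to 2.93%) in aRG-N only. Of the 12783 shared aRG-N peaks, 447 had it in N only and 411 (3.22%) in aRG-N only. Shared peaks with a fold enrichment under 5 had it in N only and in aRG-N only at 6.35% and 2.90% for N. For aRG-N these shares were 3.33% and 7.62%. At 10 or more the order was reversed, at 0.875% and 2.42% for N and 2.75% and 1.81% for aRG-N.

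**Figure D2:**
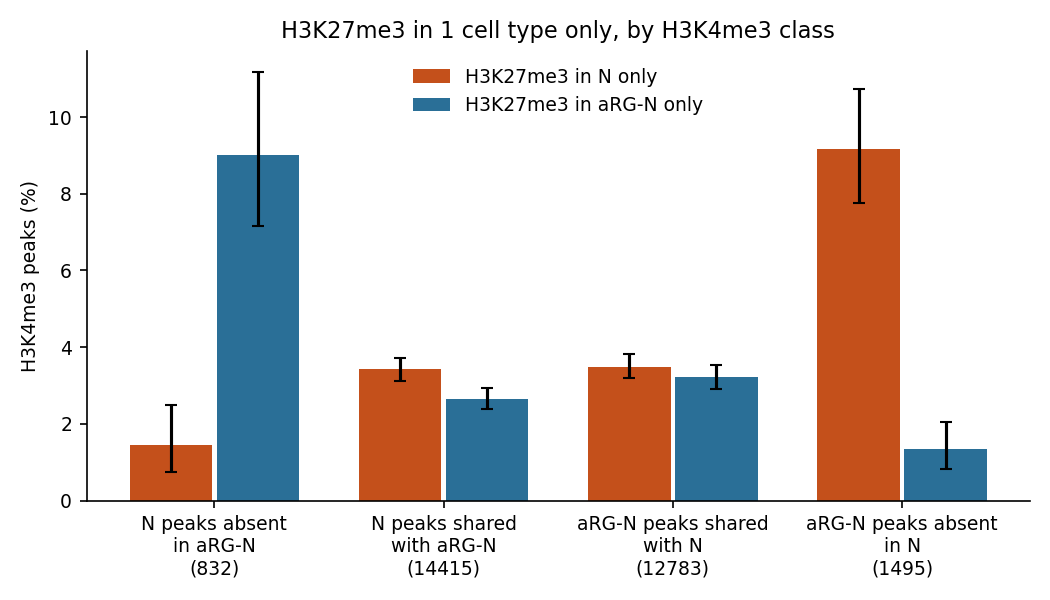
Share of H3K4me3 peaks (%, y axis) that overlap an H3K27me3 peak in N only (orange) or in aRG-N only (blue), for N peaks absent in aRG-N, shared peaks of each list and aRG-N peaks absent in N (number of peaks in brackets). Bars are shares and whiskers exact 95% intervals, which cover counting error only. H3K27me3 in aRG-N only reaches 9.01% where H3K4me3 is in N only, and H3K27me3 in N only reaches 9.16% where H3K4me3 is in aRG-N only.

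Sites that exchanged 1 mark for the other were a small part of each list. The 75 sites with H3K4me3 in N only and H3K27me3 in aRG-N only were 0.492% of N H3K4me3 peaks. The 137 sites with H3K27me3 in N only and H3K4me3 in aRG-N only were 0.960% of aRG-N H3K4me3 peaks. For reading these counts, 2.997% of all N H3K4me3 peaks had H3K27me3 in aRG-N only and 3.31% in N only, and 4.09% of all aRG-N H3K4me3 peaks had H3K27me3 in N only and 3.02% in aRG-N only. Unshared H3K4me3 peaks lacked H3K27me3 in both cell types less often than shared ones. In N this held for 527 of 832 unshared peaks (63.3%) and 85.2% of shared peaks, and in aRG-N for 925 of 1495 unshared peaks (61.9%) and 83.8% of shared peaks. H3K27me3 in both cell types lay over 218 (26.2%) of the unshared and 8.74% of the shared N peaks, and over 413 (27.6%) of the unshared and 9.52% of the shared aRG-N peaks. The largest H3K27me3 class at unshared peaks was thus the mark in both cell types, not in 1 of them.

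The same comparison was made within ranges of fold enrichment, since absent peaks were weak. Among N H3K4me3 peaks, H3K27me3 in aRG-N only was found at 8.84% of absent and 2.90% of shared peaks with a fold enrichment under 5, and at 8.65% and 2.19% between 5 and 7. Between 7 and 10 these shares were 12.2% (5 of 41) and 3.02%. Among aRG-N H3K4me3 peaks, H3K27me3 in N only was found at 5.92% of absent and 3.33% of shared peaks under 5, with overlapping intervals of 4.28 to 7.94% and 2.07 to 5.05%. Between 5 and 7 the shares were 9.15% and 5.28%, between 7 and 10 they were 17.4% and 5.65%, and at 10 or more they were 30.0% (12 of 40, interval 16.6 to 46.5%) and 2.75%. Across these 4 ranges the share of absent aRG-N peaks with H3K27me3 in N only was highest among the strongest peaks and lowest among the weakest. The share without H3K27me3 in either cell type differed less in the lower ranges than in the whole lists. For aRG-N it was 64.5% of absent and 64.0% of shared peaks under 5, and 59.5% and 62.5% between 5 and 7. At 10 or more it was 60.0% and 92.1%. For N it was 62.9% and 73.1% under 5, and 65.4% and 76.2% between 5 and 7. Under 5, H3K27me3 in both lay over 27.7% and 25.1% of aRG-N peaks, and 26.7% and 17.7% of N peaks.

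**Figure D3:**
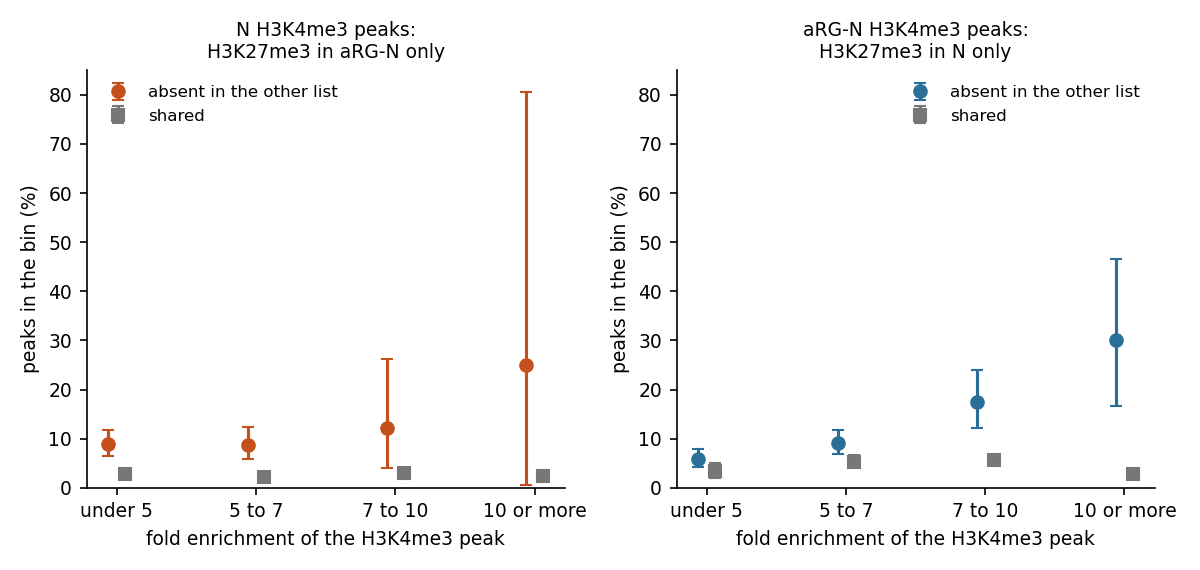
Share of H3K4me3 peaks (%, y axis) with H3K27me3 in the other cell type only, by fold enrichment of the H3K4me3 peak within its list (x axis), for N peaks (left, H3K27me3 in aRG-N only) and aRG-N peaks (right, H3K27me3 in N only). Circles are peaks absent in the other list, grey squares shared peaks, whiskers exact 95% intervals; the circle for aRG-N peaks of 10 or more stands at 30.0%, and the N circle for 10 or more rests on 4 peaks.

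Counted over H3K27me3 peaks, unshared peaks did not carry H3K4me3 of the other cell type alone more often than shared ones. Of the 1443 N H3K27me3 peaks absent in aRG-N, 83 (5.75%) overlapped an aRG-N H3K4me3 peak absent in N, and 1030 (71.4%) overlapped no H3K4me3 peak in N or aRG-N. Of the 2247 aRG-N H3K27me3 peaks absent in N, 46 (2.05%) overlapped an N H3K4me3 peak absent in aRG-N, and 1957 (87.1%) overlapped no H3K4me3. Any H3K4me3 peak of aRG-N, with none of N on the same H3K27me3 peak, was found at 7.14% of these N peaks and 8.51% of shared N peaks. Any H3K4me3 peak of N, with none of aRG-N, was found at 2.36% of these aRG-N peaks and 3.75% of shared aRG-N peaks. H3K4me3 of the same cell type alone was rarer at unshared peaks. It was found at 0.901% of unshared and 4.92% of shared N peaks, and at 1.20% and 9.24% of aRG-N peaks. Shared H3K27me3 peaks lay away from H3K4me3 less often, at 56.2% of shared N peaks and 55.4% of shared aRG-N peaks. Shared peaks were also longer, with medians of 2952 bp in N and 3302 bp in aRG-N, against 936 bp and 1011 bp for unshared ones. The part of length in these shares was not tested.

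The 75 sites with H3K4me3 in N only had fold enrichments between 2.08 and 10.2, with a median of 4.97. They lay on 18 of the 19 autosomes. Of them 21 were over 5000 bp from any aRG-N H3K4me3 peak, 47 were over 5000 bp from any N H3K27me3 peak, and 16 met both conditions. The aRG-N domains over them numbered 66, of which 46 met no N H3K27me3 peak anywhere along their length. The other 20 (30.3%) overlapped one in N beside the site. Of all aRG-N H3K27me3 peaks 63.6% overlapped one in N. The site rule bars N H3K27me3 at the site itself, so these 2 shares are not measured alike. At 36 of the 75 sites neither mark had room for an unlisted call. Only 8 of the 75 met this and both distance conditions.

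The strongest of these sites (10.2 in N) spanned 47089758 to 47090629 on chromosome 19. It lay 95 bp from an aRG-N H3K4me3 peak and under an aRG-N H3K27me3 domain of 6.34 kb, while the nearest N H3K27me3 peak was 283 bp away. The listed peaks of both cell types thus lay side by side there. NEC, aRG-P and bRG had both marks at this position.

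The clearest full exchange in this direction was on chromosome 9. An N H3K4me3 peak of 4001 bp, from 58046448 to 58050448, had a fold enrichment of 9.36 and stood 46799 bp from the nearest aRG-N H3K4me3 peak. In aRG-N an H3K27me3 domain of 10992 bp, from 58041198 to 58052189, covered the site, and the nearest N H3K27me3 peak was 108318 bp away. In the other progenitors the H3K4me3 peaks over this position measured at most 0.602 kb in NEC, 0.912 kb in aRG-P and 1.44 kb in bRG, and H3K27me3 was listed in all 3. Of the 75 sites, 3 lay here, within 5.98 kb. Call numbers left no room for an unlisted aRG-N H3K4me3 or N H3K27me3 call.

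The next 8 sites by fold enrichment were weaker, between 6.61 and 8.53 in N. The site on chromosome 17 from 49071106 to 49072396 (fold enrichment 7.44) lay 495271 bp from the nearest aRG-N H3K4me3 peak and 1098087 bp from the nearest N H3K27me3 peak, with an aRG-N H3K27me3 domain of 2.10 kb. An unlisted call of either mark was possible there. The site on chromosome 5 from 139605026 to 139605617 (7.16) was 20465 bp from the nearest aRG-N H3K4me3 peak, with no room for an unlisted call of either mark. The site on chromosome 12 from 86491367 to 86492173 (6.61) was 38573 bp away and lay under an aRG-N H3K27me3 domain of 1.43 kb; an unlisted N H3K27me3 call was possible.

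The remaining 5 of these 8 lay within 1000 bp of an aRG-N H3K4me3 peak, as the chromosome 19 site did. Chromosome 7 held one at 19477748 to 19478166, with a fold enrichment of 8.53, and another at 147267730 to 147268409, with 6.89. Chromosome 15 held one at 48623067 to 48623766, with 7.44. Those at 117691697 to 117692198 on chromosome 5 and at 31933809 to 31934173 on chromosome 16 had 6.73 and 6.61. An unlisted aRG-N H3K4me3 call was possible at the chromosome 15 site and the chromosome 7 site at 19477748. An unlisted N H3K27me3 call was possible at that chromosome 7 site and the chromosome 16 site. With a required distance of 5000 bp for both marks, 4 of the 10 sites qualify, those on chromosomes 9, 17, 5 (139605026) and 12. The chromosome 12 and 16 sites took the last places by position, since sites at 15075827 to 15076206 of chromosome 4 and at 126958526 to 126958801 of chromosome 8 tied with them in fold enrichment and −log10 p. These lay 51 bp and 809 bp from an N H3K27me3 peak, so neither qualifies.

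The 137 sites with H3K27me3 in N only and H3K4me3 in aRG-N only had fold enrichments in aRG-N between 3.09 and 17.8, with a median of 5.95. They lay on all 19 autosomes, with 16 on chromosome 2. Of them 84 were over 5000 bp from any N H3K4me3 peak, 85 were over 5000 bp from any aRG-N H3K27me3 peak, and 53 met both conditions. The N H3K27me3 domains over them numbered 119, of which 82 met no aRG-N H3K27me3 peak and had a median width of 1274 bp. The other 37 (31.1%), with a median of 4112 bp, overlapped an aRG-N H3K27me3 peak beside the site. Of all N H3K27me3 peaks 73.5% overlapped one in aRG-N, without the bar on such overlap that the site rule sets. At 69 of the 137 sites call numbers left no room for an unlisted call of either mark. Only 22 of the 137 met this and both distance conditions.

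The 2 strongest sites were on chromosomes 2 and 4. On chromosome 2 the aRG-N H3K4me3 peak spanning 105508735 to 105511186 reached 17.8-fold enrichment. N had no H3K4me3 peak within 5000 bp of it (the nearest was 5058 bp away) and an H3K27me3 domain of 34.0 kb over it, from 105498580 to 105532564. In aRG-N an H3K27me3 peak lay 283 bp from the H3K4me3 peak without overlapping it. Of the 137 sites, 5 lay within 21.6 kb under this one N domain. NEC, aRG-P and bRG listed both marks at the strongest of them, with H3K27me3 domains of 15.3, 1.16 and 6.80 kb.

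On chromosome 4 the aRG-N H3K4me3 peak spanning 154008655 to 154012900 reached 16.2-fold enrichment over 4.25 kb. N had an H3K27me3 domain of 12.5 kb there, from 154006935 to 154019477, and its nearest H3K4me3 peak was 216996 bp away. An aRG-N H3K27me3 peak lay 92 bp from the H3K4me3 peak. NEC, aRG-P and bRG again listed both marks. At both places aRG-N was the only one of the 4 progenitor lists with H3K4me3 and no overlapping H3K27me3, and the H3K27me3 lay just outside the peak.

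**Figure D4:**
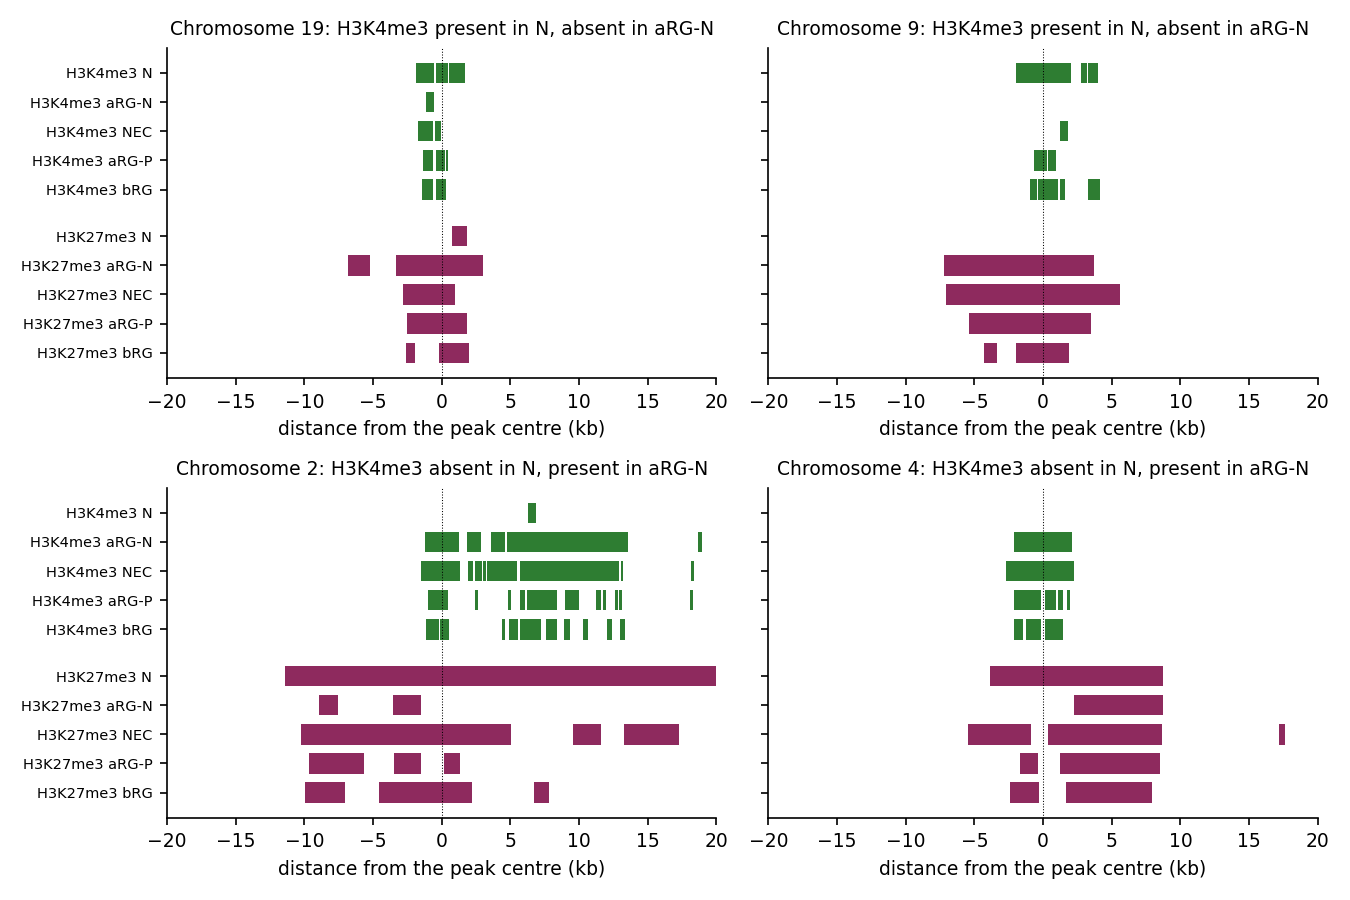
Listed peaks of H3K4me3 (green) and H3K27me3 (purple) in N, aRG-N, NEC, aRG-P and bRG around the 2 strongest sites of each direction, by distance from the centre of the H3K4me3 peak (kb, x axis, 20 kb to each side). At the chromosome 9 site a 4001 bp N H3K4me3 peak faces a 10992 bp aRG-N H3K27me3 domain; at the chromosome 2 and 4 sites N has no H3K4me3 peak at the centre and a long H3K27me3 domain across it.

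Other sites of this direction lay far from any aRG-N H3K27me3 peak. On chromosome 19 the aRG-N H3K4me3 peak from 55816632 to 55817814 (fold enrichment 10.5) was 425402 bp from the nearest N H3K4me3 peak and 141048 bp from the nearest aRG-N H3K27me3 peak, with an N H3K27me3 domain of 6.54 kb. It was 1 of 3 sites within 2.38 kb, and aRG-P and bRG also listed H3K27me3 there. On chromosome 4 the peak from 102243050 to 102243605 (10.5) was 188084 bp and 149307 bp from these, with an N H3K27me3 peak of 0.958 kb. At both, call numbers left no room for an unlisted call.

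Small N H3K27me3 peaks also covered the sites on chromosome 14 from 52947030 to 52948318 and on chromosome 15 from 103196135 to 103197431. Both had a fold enrichment of 11.1 in aRG-N, H3K4me3 in NEC, aRG-P and bRG, and no H3K27me3 in any progenitor list; the N H3K27me3 peaks measured 1.69 kb and 1.88 kb. At these 2 sites an unlisted aRG-N H3K27me3 call was possible.

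Of the rest of the 10 strongest, a pair of neighbouring peaks on chromosome 14 (122862569 to 122863032 and 122863422 to 122864671, both 11.4) lay under an N H3K27me3 domain of 32.2 kb and had aRG-N H3K27me3 within 5000 bp; an unlisted aRG-N H3K27me3 call was possible at both. The chromosome 12 peak from 81212025 to 81214032 (13.0) had an N H3K4me3 peak 658 bp away and its nearest aRG-N H3K27me3 peak 577942 bp away. The chromosome 9 peak from 110856005 to 110856924 (10.5) met the edge of an N H3K27me3 peak of 0.540 kb, and an unlisted N H3K4me3 call was possible. With 5000 bp required for both marks, 4 of the 10 qualify, those on chromosomes 14 (52947030), 15, 19 and 4 (102243050).

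The other progenitor lists, which the comparison did not use, showed how the exchanged sites were marked in NEC, aRG-P and bRG. The 75 sites with H3K4me3 in N only carried H3K27me3 in NEC in 61 cases (81.3%), in aRG-P in 27 and in bRG in 16, and in none of the 3 in 14. H3K4me3 was listed there in NEC at 39 sites (52.0%), in aRG-P at 28 and in bRG at 16, and in none at 27. For all 832 N H3K4me3 peaks absent in aRG-N the NEC H3K27me3 share was 39.2%, and for shared N peaks with H3K27me3 in aRG-N only it was 84.6%.

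The 137 sites with H3K4me3 in aRG-N only carried H3K4me3 in NEC in 128 cases (93.4%), in aRG-P in 58 (42.3%) and in bRG in 56 (40.9%). All 3 lists had it at 40 sites (29.2%) and NEC alone of the 3 at 56 (40.9%), against 18.1% and 40.4% of all absent peaks. For all 1495 aRG-N H3K4me3 peaks absent in N these shares were 87.8% in NEC, 33.6% in aRG-P and 36.2% in bRG, and for the shared aRG-N peaks they were 98.7, 95.1 and 96.5%. At least 1 of aRG-P and bRG listed H3K4me3 at 761 of these 1495 peaks (50.9%). H3K27me3 was listed at 91 of the 137 sites in at least 1 of NEC, aRG-P and bRG, with 61 in NEC, 38 in aRG-P and 46 in bRG. It was in none of them at 46 sites (33.6%), and 16 of those had H3K4me3 in all 3. The share with none was 59.8% for all 1495 absent peaks and 38.3% for shared aRG-N peaks with H3K27me3 in N only. In NEC H3K27me3 lay over 44.5% of the 137 sites, 35.4% of all absent peaks and 51.5% of those shared peaks. The same shares were 27.7, 26.8 and 11.6% in aRG-P, and 33.6, 26.8 and 18.6% in bRG.

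Where H3K4me3 was listed in both cell types its covered length was also lower in the cell type that alone had H3K27me3. Overlapping H3K4me3 peaks of N and aRG-N were joined into regions, and for each region with the mark in both the log2 ratio of the bases covered in N to those in aRG-N was taken. In the 10377 regions without H3K27me3 the median ratio was -0.18 (918 bp in N, 1059 bp in aRG-N), against which the other groups are read. In the 446 regions with H3K27me3 in N only it was -0.41 (774 bp in N, 1123 bp in aRG-N). In the 364 regions with H3K27me3 in aRG-N only it was 0.24 (1178 bp in N, 941 bp in aRG-N), and in the 1247 with H3K27me3 in both it was -0.10.

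A log2 ratio of -1 or less was found in 19.1% of regions with H3K27me3 in N only (interval 15.5 to 23.0%), 1.37% of those with it in aRG-N only (0.447 to 3.18%) and 3.81% of those without it (3.45 to 4.19%). A ratio of 1 or more was found in 0.224%, 8.24% and 0.636% of these groups. The order of the medians was the same in narrow, middle and wide regions by aRG-N length. In these groups the medians were -0.29, -0.42 and -0.49 with H3K27me3 in N only, 0.31, 0.33 and 0.14 with it in aRG-N only, and -0.14, -0.20 and -0.20 without it. The part of read depth and peak calling in these lengths was not tested.

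**Figure D5:**
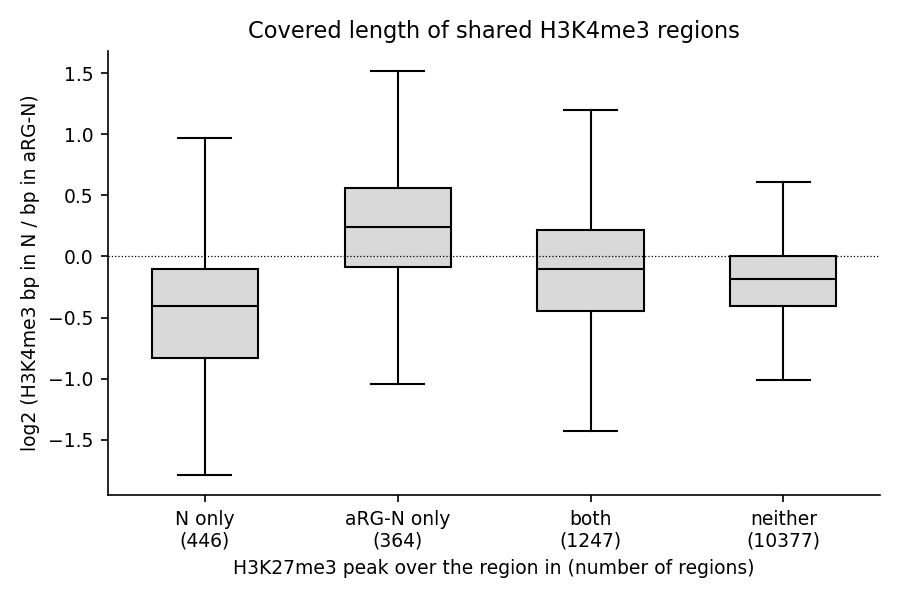
Log2 ratio of H3K4me3-covered bases in N to those in aRG-N (y axis) for regions marked in both cell types, by where an H3K27me3 peak overlaps the region (x axis, number of regions in brackets). Boxes give quartiles and median, whiskers reach 1.5 times the box height at most and outliers are not drawn; the medians are -0.41 with H3K27me3 in N only, 0.24 with it in aRG-N only, -0.10 with both and -0.18 with neither.

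The regions with the most bases of difference were chosen after their values were seen, and this ranking itself favours broad regions. On chromosome 12 from 96930223 to 96936007 H3K4me3 covered 5.79 kb in N and 2.02 kb in aRG-N, which had an H3K27me3 domain of 2.70 kb. On chromosome 9 from 112134436 to 112138542 it covered 4.11 kb in N and 1.16 kb in aRG-N, with an aRG-N H3K27me3 domain of 5.29 kb. On chromosome 12 from 30213263 to 30216401 it covered 3.11 kb in N and 0.657 kb in aRG-N, with an aRG-N domain of 6.81 kb. The last 2 lay beside clusters of 2 and 3 of the 75 exchange sites.

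In the opposite direction, H3K4me3 on chromosome 2 from 115882034 to 115898950 covered 6.75 kb in N and 16.9 kb in aRG-N, the widest H3K4me3 peak of the aRG-N list. N had an H3K27me3 domain of 4.81 kb there. On chromosome 2 from 105514686 to 105523522, under the 34.0 kb N domain already described, H3K4me3 covered 0.551 kb in N and 8.84 kb in aRG-N. On chromosome 4 from 109648670 to 109656741 it covered 0.528 kb in N and 8.07 kb in aRG-N, and N had an H3K27me3 domain of 14.7 kb. In NEC that region was covered fully by H3K27me3 (8.07 kb) and by 7.39 kb of H3K4me3. H3K27me3 also covered 4.12 kb of it in aRG-P and 1.79 kb in bRG, so aRG-N alone listed none there. By the overlap rule these 3 regions count as shared, so the counts of absent peaks leave them out.

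Unshared H3K4me3 peaks without H3K27me3 in N or aRG-N, and over 5000 bp from the other list, were led by few strong peaks. The highest N fold enrichment, 11.8, was at 123362896 to 123364503 of chromosome 4. It was followed by 10.5 at 139847646 to 139848279 of chromosome 5 and 10.2 at 98789053 to 98790162 of chromosome 11. All 3 had H3K4me3 in NEC, as did 59.5% of all N H3K4me3 peaks absent in aRG-N. The highest in aRG-N, 14.3, was at 97518140 to 97522709 of chromosome 8. It was followed by 13.6 at 87885852 to 87886509 of chromosome 3 and 13.3 at 146041245 to 146042273 of chromosome 5. The chromosome 3 and 5 peaks had H3K4me3 in NEC, as did 87.8% of all aRG-N H3K4me3 peaks absent in N. The chromosome 8 peak was 4.57 kb wide in aRG-N, and the bRG peaks over it measured at most 0.571 kb. Of these 6 sites, the chromosome 11 site alone left no room for an unlisted call of the other cell type.

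Among H3K27me3 domains without H3K4me3 in N or aRG-N and over 5000 bp from the other list, the longest of N were shorter than the longest of aRG-N. The longest N domain, at 122799978 to 122808710 of chromosome 14, spanned 8.73 kb and was in no progenitor list. One at 44456621 to 44464872 of chromosome 11 spanned 8.25 kb and overlapped bRG peaks of at most 1.01 kb. One at 62302309 to 62310430 of chromosome 14 spanned 8.12 kb and had H3K27me3 in NEC and bRG. The longest aRG-N domains were a 29.7 kb one at 44517356 to 44547067 and a 21.9 kb one at 130414326 to 130436199, both on chromosome 4 and in no other list. A 17.6 kb one at 4477567 to 4495178 of chromosome 1 was also listed in NEC, aRG-P and bRG, at 15.6, 15.2 and 15.1 kb. At all 3 aRG-N domains an unlisted N call was possible, and at the 3 N domains the chromosome 11 domain alone left no room for an unlisted aRG-N call.

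Shared H3K27me3 domains were divided unequally between the lists. In N, 131 of the 5448 peaks each overlapped 2 or more aRG-N peaks, up to 4, with a median width of 8278 bp. In aRG-N, 197 of the 6165 peaks each overlapped 2 or more N peaks, up to 6, with a median width of 9180 bp. The peak names of the N list mention an extension by 200, those of the aRG-N list do not, and the part of this step in such joins was not tested. Of the H3K27me3 bases of N, 79.4% lay under an aRG-N peak, and of those of aRG-N, 70.5% lay under an N peak.

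H3K27me3 peaks of 1 of the 2 cell types were mostly missing from the other progenitors too. Of the 1443 N peaks absent in aRG-N, 920 (63.8%) were in none of NEC, aRG-P and bRG, and 375 (26.0%) were in NEC. Of the 2247 aRG-N peaks absent in N, 1473 (65.6%) were in none of the 3, and 542 (24.1%) were in NEC. For shared peaks the share found in none of the 3 was 9.61% for N and 8.55% for aRG-N. Unshared peaks were shorter, with medians of 936 bp in N and 1011 bp in aRG-N against 2952 bp and 3302 bp. The part of peak length in this contrast was not tested.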

How the data were processed

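ChIP was done with a kit for low cell numbers on purified cells, per the labels' protocols. Positions are on build mm9, per the file headers. Tools listed in the submitters' processing notes are bedtools, MACS2 and Bowtie 1.0.0. The deposited files are peak lists called on combined samples, per the peak names, and their headers refer to all transcripts, read here as a restriction of the calls; the aRG-N H3K4me3 header adds a window of 2000 bp, which the N header does not. Names in the aRG-P H3K27me3 list mention an exclusion from the combined samples. For H3K4me3 the authors' lists give a fold enrichment (ratio) and −log10 p and −log10 q; for H3K27me3 the 3 deposited columns are treated as a score of unsettled meaning.

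Peaks were compared with scipy 1.17.1, pandas 2.3.3 and numpy 2.4.6 (Python 3.11.15). Figures used matplotlib 3.10.9. Intervals are exact Clopper-Pearson. Named regions were the 10 peaks of highest fold enrichment per exchange direction (ties by −log10 p, then by position with chromosome names sorted as text) and the 3 strongest or longest unshared peaks without the other mark. The members and lists were chosen with earlier results of these data known. On simulated lists 200 of 200 removed and 200 of 200 added peaks were called for each mark (14278 H3K4me3 and 6165 H3K27me3 peaks). Added peaks were placed off the listed ones. This checked the overlap step only and cannot show how well absence is called between real lists. The gene table supplied was for another build and was not used here, and no sequence is shown. Input samples were not analysed here.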

Additional observations from a re-analysis of the deposited data

How the results depend on the processing

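Of 48 counts under 9 other settings, 30 stayed within 1.5 times the reported count and 18 did not. With no peak allowed within 5000 bp, unshared H3K4me3 peaks numbered 289 in N and 761 in aRG-N, and exchange sites 16 (H3K4me3 in N) and 53 (H3K4me3 in aRG-N). With peaks joined across 3000 bp, they numbered 296 in N and 756 in aRG-N, and exchange sites 21 (H3K4me3 in N) and 75 (H3K4me3 in aRG-N). With an overlap of at least 50%, the aRG-N H3K4me3 count was 2254 and exchange sites numbered 131 (H3K4me3 in N) and 223 (H3K4me3 in aRG-N). With lists of equal length the N H3K4me3 count was 547. With H3K27me3 peaks of at least 1000 bp, unshared H3K27me3 peaks numbered 913 in N and 1422 in aRG-N. With no room for an unlisted call, a setting chosen after seeing the data, they numbered 901 in N and 1487 in aRG-N, and exchange sites 36 (H3K4me3 in N) and 69 (H3K4me3 in aRG-N). The cause was not tested. Under each of these settings, of 2 others on peak q and H3K27me3 score, and as reported, H3K27me3 in aRG-N only was more frequent than in N only at H3K4me3 peaks of N absent in aRG-N (5.14 to 11.1% against 0.346 to 1.70%), and the reverse held at aRG-N peaks absent in N (H3K27me3 in N only 5.48 to 9.95%, in aRG-N only 0.715 to 1.98%). These shares were not run with all chromosomes together. Median log2 length ratios were -0.43 to -0.37 with H3K27me3 in N only, 0.22 to 0.28 with it in aRG-N only and -0.19 to -0.13 without it, as reported and under 5 settings chosen after seeing the data. No paired analysis was possible because each cell type and mark has 1 list of combined samples, and for the same reason no replicate could be left out. The depth behind each list is unknown, so absence means only that no peak was listed.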
